A study of Mus musculus with 10 samples.

Results

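The endocannabinoid system is described here through 6 genes, *Cnr1*, *Dagla*, *Daglb*, *Mgll*, *Faah* and *Napepld*, of the 33502 genes counted in single nuclei from the paraventricular nucleus of the thalamus (PVT) of the mouse and the tissue around it. The genes were taken by symbol and not by any measured value, and their unique molecular identifiers (UMIs, which tag single RNA molecules) were summed per library and cell type. The series holds 10 libraries of 12-week-old C57BL/6J mice, which had no treatment named in the labels. Tissue punches of several mice were pooled for each library. Of these libraries, 6 are labelled female, and the titles of the other 4 give no sex. The deposited metadata list every nucleus of those 4 as male, and they are called male replicates 1 to 4 below.

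Endocannabinoids are lipid messengers that many neurons make on demand and that act back on the synapses reaching them. *Cnr1* encodes the cannabinoid receptor CB1, a G protein-coupled receptor that lowers transmitter release from presynaptic terminals. *Dagla* and *Daglb* encode the diacylglycerol lipases that form 2-arachidonoylglycerol (2-AG), and *Mgll* encodes monoacylglycerol lipase, the main enzyme that breaks 2-AG down. *Napepld* encodes a phospholipase that forms anandamide and related N-acylethanolamines, and *Faah* encodes the hydrolase that degrades them. The PVT is a midline thalamic nucleus of glutamatergic neurons that is known for roles in arousal, stress and motivated behaviour.

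In GRCm38 (mm10), the build the files use, *Cnr1* spans chr4:33923171-33948831 on the plus strand and *Faah* spans chr4:115996668-116018837 on the minus strand. *Dagla* lies at chr19:10245265-10304877 on the minus strand and *Daglb* at chr5:143464484-143504442 on the plus strand. *Mgll* covers chr6:88724412-88828360 on the plus strand, and *Napepld* covers chr5:21662901-21701622 on the minus strand. In the annotation of that build, *Cnr1* and *Faah* overlap no other gene. *Daglb* overlaps *Rac1* on the opposite strand, and *Mgll* overlaps 3 other annotated genes on its own strand and 2 on the opposite strand. *Dagla* and *Napepld* each overlap 1 annotated gene on the opposite strand.

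Promoter sequences are shown for *Cnr1* and for 3 genes that differed in the other direction in one of the neuron groups described below, the *Adarb2* neurons. Each window runs from 250 bases before to 50 bases after a RefSeq transcript start, 5′ to 3′ on the gene's strand, and is credited to RefSeq (GRCm38.p6). The capitals mark the GC box, GGGCGG or its reverse complement CCGCCC, which can bind SP-family factors. The windows are chr4:33924014-33924313 for *Cnr1*, chr6:88724162-88724461 for *Mgll*, chr4:116017875-116018174 for *Faah* and chr5:21701573-21701872 for *Napepld*.
Cnr1: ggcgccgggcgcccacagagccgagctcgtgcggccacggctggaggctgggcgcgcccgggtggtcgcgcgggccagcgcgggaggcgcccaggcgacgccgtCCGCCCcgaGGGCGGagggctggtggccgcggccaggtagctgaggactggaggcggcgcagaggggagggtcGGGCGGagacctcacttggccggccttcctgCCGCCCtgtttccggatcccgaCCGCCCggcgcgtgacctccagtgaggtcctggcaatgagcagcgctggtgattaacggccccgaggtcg
Mgll: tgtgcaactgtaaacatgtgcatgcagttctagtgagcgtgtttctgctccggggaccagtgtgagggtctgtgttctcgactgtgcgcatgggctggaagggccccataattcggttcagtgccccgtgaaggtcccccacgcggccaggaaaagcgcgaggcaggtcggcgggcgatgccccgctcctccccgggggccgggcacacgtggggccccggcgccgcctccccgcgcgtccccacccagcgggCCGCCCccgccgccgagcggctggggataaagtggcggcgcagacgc
Faah: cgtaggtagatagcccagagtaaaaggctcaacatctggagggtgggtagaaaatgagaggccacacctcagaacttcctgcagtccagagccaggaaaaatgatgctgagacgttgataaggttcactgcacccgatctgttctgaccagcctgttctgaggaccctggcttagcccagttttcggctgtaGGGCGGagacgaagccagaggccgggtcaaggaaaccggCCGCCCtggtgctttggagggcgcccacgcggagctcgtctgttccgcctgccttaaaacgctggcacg
Napepld: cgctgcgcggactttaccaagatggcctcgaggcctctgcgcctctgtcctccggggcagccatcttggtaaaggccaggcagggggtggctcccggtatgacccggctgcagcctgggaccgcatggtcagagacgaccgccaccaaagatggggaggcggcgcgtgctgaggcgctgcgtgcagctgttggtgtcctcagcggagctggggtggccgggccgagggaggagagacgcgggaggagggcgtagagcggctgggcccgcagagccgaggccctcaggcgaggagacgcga
The *Cnr1* window held 5 GC boxes, the *Faah* window 2, the *Mgll* window 1 and the *Napepld* window 0. Of the 32851 windows in the same table, 11714 (35.7%) held at least 1. The number of CG dinucleotides was 40 for *Cnr1*, 32 for *Mgll*, 28 for *Napepld* and 16 for *Faah*, against a median of 7 over all windows. The table held 3 windows for *Cnr1* and 2 for *Mgll*, and the first listed of each is shown. The other *Cnr1* windows held 0 GC boxes each, with 33 and 5 CG dinucleotides, and the other *Mgll* window held 1 and 42. RefSeq gave windows for 5 of the 6 genes, and the *Daglb* window, which is not shown, held 0 GC boxes and 11 CG dinucleotides.

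The 4 male libraries held 875 to 7213 nuclei and 7568267 to 55956635 UMIs, and the 6 female libraries held 1049 to 1615 nuclei and 5119927 to 12891409 UMIs. The median neuron had 13580 UMIs in the male set and 6843 in the female set. The 20503 nuclei carry the cell type names the authors deposited: 10410 neurons, 5302 astrocytes, 2462 oligodendrocytes, 993 microglia, 473 oligodendrocyte precursor cells (OPCs), 469 ependymal cells, 215 endothelial cells and 179 fibroblasts. All 31 marker genes checked were highest in the type they mark. The authors named the types by some of these genes, so for those the check could hardly fail. Barcode sequences that occurred in more than 1 library numbered 46, over 92 nuclei. The 13 mitochondrial genes were left out of the sums because their counts were 0 in the male set and 562659 in the female set.

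Levels are given in CPM, the UMIs of a gene scaled to the UMIs of its library and cell type. Only genes that passed the filter on low counts entered that total, which was adjusted by edgeR's TMM factor. The SD is over libraries, and n is the number of libraries with at least 10 nuclei of the type. Levels were scaled within each comparison, so a level in 1 comparison is not set beside a level in another, and levels are compared between cell types and not between genes. In sums of this kind, fewer nuclei that express a gene cannot be told apart from less RNA in each nucleus. Each cell type was compared with the mean of the other 7 by edgeR's quasi-likelihood test, with the library as a block. A change was called at a Benjamini-Hochberg adjusted p under 0.05 over the 9789 genes tested and an absolute log2 fold change over 0.5. The contrasts share sums, since each cell type is part of the reference of the others.

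All 6 genes passed the filter on low counts in the cell type comparison, and 27 of their 48 contrasts were called, 12 higher and 15 lower. Neurons were higher for 4 genes and lower for none, astrocytes higher for 1 and lower for 2, oligodendrocytes higher for 2 and lower for 4, and OPCs higher for 1. Microglia were higher for 3 and lower for 1, ependymal cells higher for 1 and lower for 3, endothelial cells lower for 3 and fibroblasts lower for 2. Over all genes, 29.7% were called higher and 27.5% lower in neurons, 21.4% and 19.8% in astrocytes, 20.8% and 26.0% in oligodendrocytes, and 19.2% and 14.7% in OPCs. The same shares were 22.8% and 27.4% in microglia, 26.7% and 19.2% in ependymal cells, 18.4% and 20% in endothelial cells, and 11.2% and 9.12% in fibroblasts. The median log2 difference of the 6 genes in neurons was 1.41, against 0.02 over all genes tested.

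**Figure D1:**
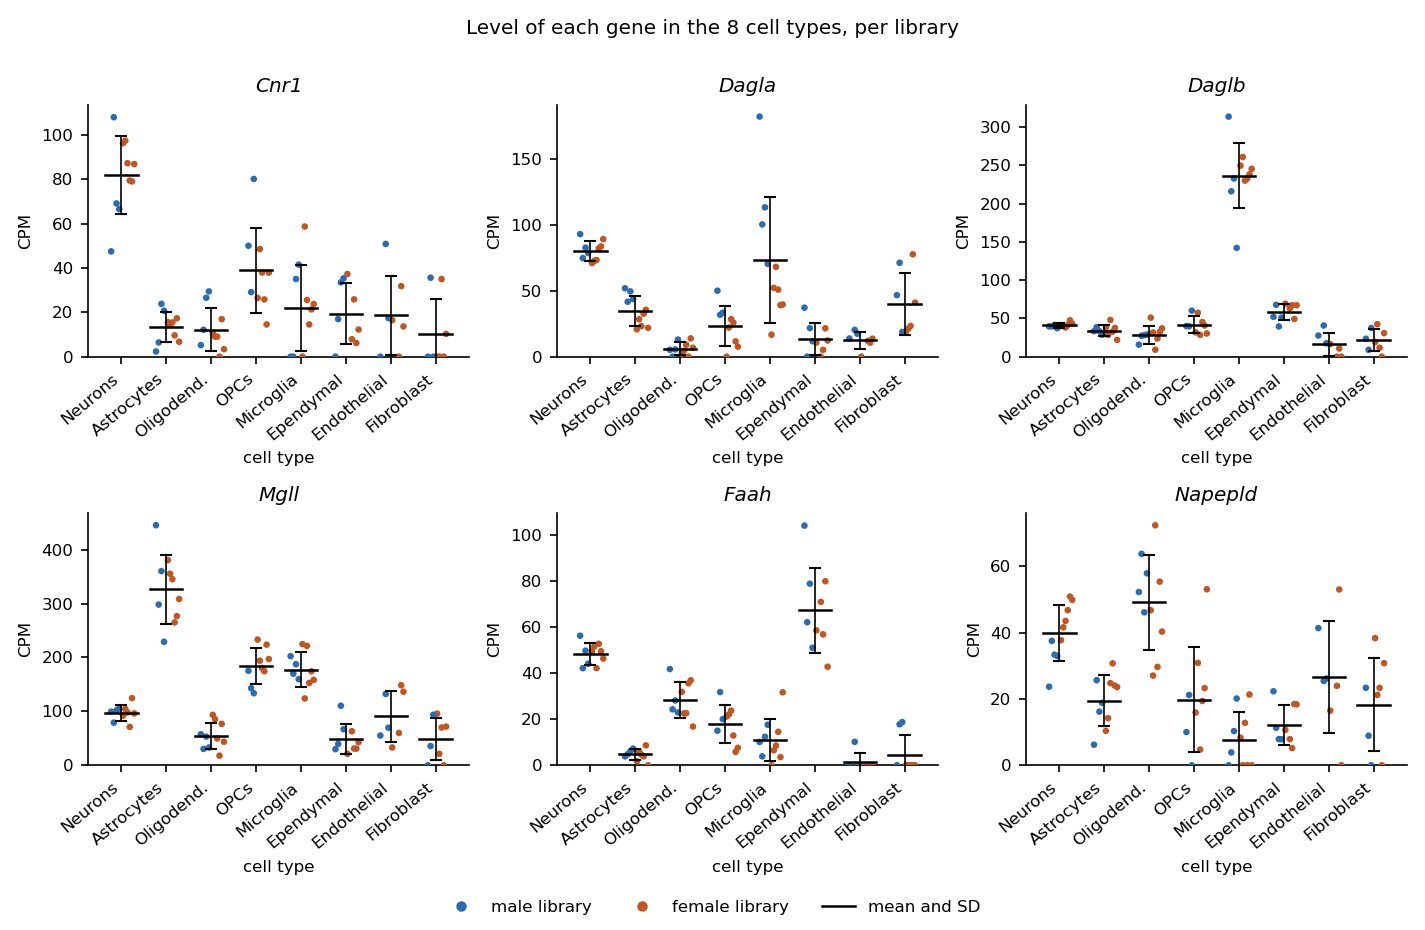
Level of each of the 6 genes (CPM, vertical axis) in the 8 cell types (horizontal axis), with a point per library in blue for the male and orange for the female set, and the mean and SD in black (bars end at 0 where the SD reaches below it). *Cnr1* was highest in neurons (81.8 CPM), *Daglb* in microglia (236 CPM), *Mgll* in astrocytes (326 CPM), *Faah* in ependymal cells (67.3 CPM) and *Napepld* in oligodendrocytes (49.1 CPM).

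The receptor gene *Cnr1* was at its highest in neurons. Its level there was 81.8 ± 17.6 CPM (SD, n = 10), with a lowest library of 47.5, a median of 83.2 and a highest of 108 CPM. Its log2 difference from the mean of the other types was 2.10 (SE 0.16, edgeR adjusted p = 1.0e-19), 4.30-fold, and it was higher in 10 of 10 libraries. On average 93.7% of a library's *Cnr1* UMIs lay in neurons, which held 76.2% of all UMIs.

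OPCs came next for *Cnr1* with 39.0 ± 19.2 CPM (n = 9), and their level was below that of neurons (exact sign-flip permutation test, two-sided, adjusted p = 0.0193). Microglia had 22.0 ± 19.5 CPM (n = 10), ependymal cells 19.5 ± 13.9 (n = 9) and endothelial cells 18.6 ± 18.0 (n = 7). Astrocytes had 13.2 ± 6.81 CPM, oligodendrocytes 12.2 ± 9.57 (both n = 10) and fibroblasts 10.1 ± 16.0 (n = 8). No neighbouring types below neurons were shown to differ in this order, and 10 of the 28 pairs of types did so for *Cnr1*. Microglia were at 0 in 3 of 10 libraries and fibroblasts in 5 of 8.

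The levels of *Cnr1* outside neurons lay within the range of neuron markers there, but in OPCs well above the marker median. The astrocyte level was 16.2% of the neuron level, and 8 neuron markers (*Rbfox3*, *Snap25*, *Syt1*, *Camk2b*, *Grin1*, *Stmn2*, *Eno2* and *Slc17a6*) stood at 5.98 to 51.2% (median 15.1%) of their neuron level in astrocytes. In oligodendrocytes *Cnr1* stood at 15.0% and these markers at 11.3 to 49.7% (median 19.6%). In microglia the values were 27.0% for *Cnr1* and 10.9 to 55.4% (median 19.7%) for the markers, and in OPCs 47.6% and 12.8 to 58.4% (median 27.0%). The highest marker in each of these types was *Eno2*. The part of free neuronal RNA in these levels was not tested. *Cnr1* was called lower in astrocytes (log2 difference −0.85, SE 0.24, adjusted p = 0.0016) and in oligodendrocytes (−0.65, SE 0.27, adjusted p = 0.032). The oligodendrocyte call was lost without female replicate 3, female replicate 6 or male replicate 3 (adjusted p 0.087 to 0.14). The astrocyte call was lost with the 6 female libraries alone (−0.67, adjusted p = 0.059). Without the non-neuronal nuclei that held a UMI of *Rbfox3* or *Syt1* both calls were lost, at −0.44 (adjusted p = 0.24) in astrocytes and −0.27 (adjusted p = 0.58) in oligodendrocytes. In that setting *Cnr1* gained a call in ependymal cells, where it was lower (−2.02, edgeR adjusted p = 0.0074). With all nuclei its ependymal difference was −0.21 (adjusted p = 0.62).

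*Dagla*, whose enzyme is the main source of synaptic 2-AG in the adult brain, was high in neurons and microglia. Neurons had 80.1 ± 7.35 CPM (n = 10), from 71.1 through a median of 80.4 to 93.0 CPM, and a log2 difference of 1.82 (SE 0.13, edgeR adjusted p = 9.2e-21). Microglia had 73.3 ± 47.9 CPM (n = 10), from 16.6 through 60.2 to 182 CPM, and a log2 difference of 1.59 (SE 0.19, adjusted p = 2.4e-11). Over all libraries neurons and microglia were not shown to differ from each other (exact sign-flip permutation test, adjusted p = 0.273), and microglia were the more variable of the pair. The means went in different directions in the sets. Microglia had 117 ± 47.3 CPM in the 4 male libraries, where neurons had 82.3 ± 7.83. In the 6 female libraries microglia had 44.4 ± 17.3 CPM and neurons 78.7 ± 7.36. Over all libraries the microglial level of *Dagla* was 91.5% of that of neurons, above every neuron marker, of which the highest was *Eno2* at 55.4%. The markers were not set beside it within each set.

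Astrocytes held 34.9 ± 11.4 CPM of *Dagla* (n = 10), fibroblasts 39.9 ± 23.8 (n = 8) and OPCs 23.4 ± 15.2 (n = 9). The lowest types were ependymal cells with 13.4 ± 11.9 CPM (n = 9), endothelial cells with 12.5 ± 6.44 (n = 7) and oligodendrocytes with 5.99 ± 4.83 (n = 10). Oligodendrocytes were 4.25-fold below the mean of the other types (log2 difference −2.09, SE 0.27, edgeR adjusted p = 2.1e-10). *Dagla* was also called lower in ependymal cells (−1.09, SE 0.31, adjusted p = 0.0019) and endothelial cells (−1.19, SE 0.47, adjusted p = 0.038). The endothelial call rested on 10 UMIs and was lost without any of 6 libraries (female replicates 4, 5 and 6, male replicates 1, 3 and 4), with adjusted p between 0.053 and 0.075.

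*Daglb*, which encodes the other diacylglycerol lipase, was highest in microglia. Its level there was 236 ± 42.4 CPM (n = 10), from 142 through a median of 236 to 314 CPM, and its log2 difference was 2.80 (SE 0.11, edgeR adjusted p = 7.1e-35), 6.96-fold, higher in 10 of 10 libraries. Microglia held 2.24% of a library's UMIs and 13.4% of its *Daglb* UMIs. The other types were at or below 58.5 CPM, the level of ependymal cells (± 10.7, n = 9), which was below that of microglia (exact sign-flip permutation test, adjusted p = 0.0143).

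OPCs had 41.5 ± 11.2 CPM of *Daglb* (n = 9), neurons 40.9 ± 2.87, astrocytes 34.0 ± 7.10 and oligodendrocytes 28.5 ± 11.4 (each n = 10). Fibroblasts had 21.7 ± 14.7 CPM (n = 8) and endothelial cells 16.1 ± 14.6 (n = 7). *Daglb* was the steadiest of the 6 genes in neurons, from 37.2 to 47.5 CPM over the libraries, and its log2 difference there was −0.04 (SE 0.12, edgeR adjusted p = 0.98). It was called lower in endothelial cells (−1.21, SE 0.32, adjusted p = 0.0025), fibroblasts (−1.15, SE 0.36, adjusted p = 0.018) and oligodendrocytes (−0.52, SE 0.15, adjusted p = 0.0029). The fibroblast call was lost without female replicate 3 or male replicate 3 (adjusted p 0.051 and 0.14), and the oligodendrocyte call without female replicate 2, female replicate 3 or male replicate 3, where its size fell to between −0.49 and −0.38.

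The balance of the lipases was compared within each library as the log2 ratio of *Dagla* to *Daglb* UMIs, each with 1 UMI added. Scaling does not enter it, but the added UMI pulls a ratio of few UMIs toward 0, and the endothelial sums held 0 to 4 *Dagla* and 0 to 8 *Daglb* UMIs. The ratio is set between cell types, and its zero has no meaning of its own. It was 0.96 ± 0.14 in neurons, 0.00 ± 0.56 in astrocytes, −1.88 ± 1.10 in oligodendrocytes and −1.81 ± 0.84 in microglia (each n = 10). It was −0.93 ± 0.94 in OPCs and −2.00 ± 1.10 in ependymal cells (each n = 9), −0.06 ± 0.82 in endothelial cells (n = 7) and 0.56 ± 1.05 in fibroblasts (n = 8).

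The mean ratio was higher in neurons than in any other type, and 6 of 7 differences passed the test. Neurons exceeded microglia by 2.77 log2 units and oligodendrocytes by 2.84, in 10 of 10 libraries each (exact sign-flip permutation test, two-sided, adjusted p = 0.00456). They exceeded astrocytes by 0.96, in 10 of 10 libraries (exact test, adjusted p = 0.00456), and ependymal cells by 2.98 and OPCs by 1.86, in 9 of 9 libraries each (exact test, adjusted p = 0.00547). The excess over endothelial cells was 1.06, in 6 of 7 libraries (exact test, adjusted p = 0.0365), and that over fibroblasts was 0.36, in 6 of 8 libraries (exact test, adjusted p = 0.344). The endothelial difference lost its call without any of 6 libraries (female replicates 1, 5 and 6, male replicates 1, 3 and 4), at an adjusted p of 0.0729 by the exact test. With the 4 male or the 6 female libraries alone the exact test made 0 calls, at smallest adjusted p-values of 0.219 and 0.0547. With 4 libraries its two-sided p cannot fall under 0.05, so no call was possible there, and 6 libraries leave it little room.

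**Figure D2:**
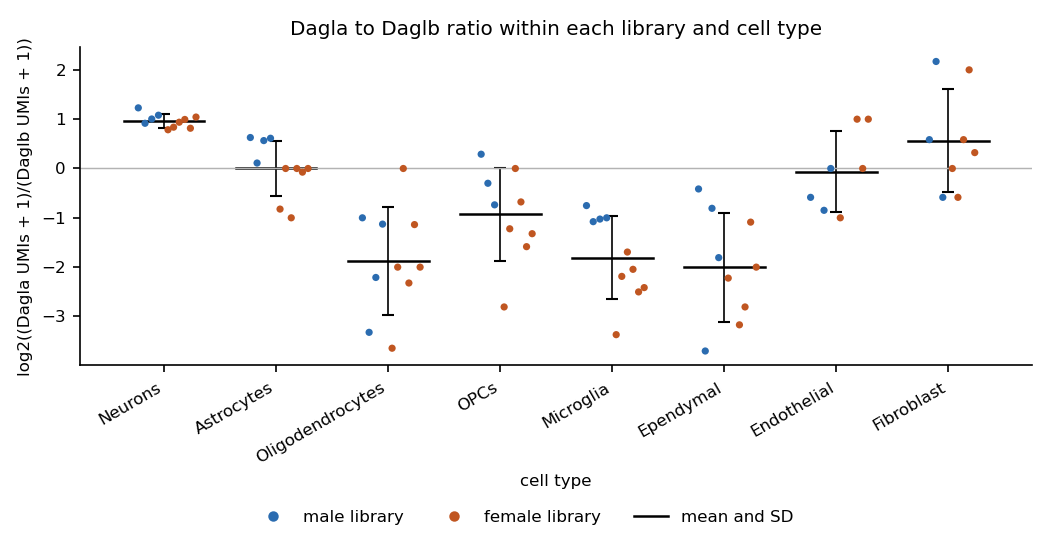
Log2 ratio of *Dagla* to *Daglb* UMIs (each plus 1, vertical axis) in the 8 cell types (horizontal axis), with a point per library in blue for the male and orange for the female set, and the mean and SD in black. Neurons sit in a narrow band at 0.96 ± 0.14, and microglia average −1.81 with the male libraries above the female ones.

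*Mgll*, which ends 2-AG signalling, was highest in astrocytes. The astrocyte level was 326 ± 63.5 CPM (n = 10), from 229 through a median of 327 to 445 CPM, and the log2 difference was 1.87 (SE 0.11, edgeR adjusted p = 2.8e-25), 3.66-fold, higher in 10 of 10 libraries. Astrocytes held 11.0% of a library's UMIs and 29.6% of its *Mgll* UMIs. OPCs followed with 184 ± 32.9 CPM (n = 9) and a log2 difference of 0.93 (SE 0.15, adjusted p = 1.8e-07), and microglia with 178 ± 31.8 CPM (n = 10) and 0.88 (SE 0.14, adjusted p = 1.3e-07). Astrocytes were above OPCs and microglia above neurons (exact sign-flip permutation tests, adjusted p = 0.0143 each), while OPCs and microglia were not shown to differ (exact test, adjusted p = 0.591).

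Neurons had 97.2 ± 14.6 CPM of *Mgll* (n = 10), from 71.1 to 124 CPM, and were not called (log2 difference −0.11, SE 0.12, edgeR adjusted p = 0.41). Endothelial cells had 90.7 ± 46.8 CPM (n = 7). The lowest types were oligodendrocytes with 54.1 ± 24.8 CPM (n = 10), fibroblasts with 48.5 ± 39.5 (n = 8) and ependymal cells with 48.4 ± 27.9 (n = 9), and all 3 were called lower. Their log2 differences were −1.12 (SE 0.16, adjusted p = 6.0e-09), −1.18 (SE 0.30, adjusted p = 0.0016) and −1.12 (SE 0.19, adjusted p = 5.4e-07). The order had 20 of 28 pairs of types that differed, the most of the 6 genes.

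*Napepld*, the anandamide-forming enzyme, had its highest levels in oligodendrocytes and neurons. Oligodendrocytes had 49.1 ± 14.3 CPM (n = 10), from 27.0 through a median of 49.5 to 72.4 CPM, and a log2 difference of 1.41 (SE 0.18, edgeR adjusted p = 1.8e-10), higher in 10 of 10 libraries. Neurons had 39.8 ± 8.48 CPM (n = 10), from 23.7 through 39.7 to 50.9 CPM, and a log2 difference of 1.00 (SE 0.15, adjusted p = 6.0e-09), higher in 9 of 10. These types were not shown to differ (exact sign-flip permutation test, adjusted p = 0.252), nor were any other neighbours in the order.

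Endothelial cells had 26.6 ± 17.0 CPM of *Napepld* (n = 7), OPCs 19.8 ± 15.7 (n = 9), astrocytes 19.5 ± 7.67 (n = 10) and fibroblasts 18.2 ± 14.0 (n = 8). Ependymal cells had 12.2 ± 6.00 CPM (n = 9) and microglia 7.67 ± 8.34 (n = 10), with 4 of the 10 microglial sums at 0. *Napepld* was called lower in both of the latter, with log2 differences of −1.03 (SE 0.33, edgeR adjusted p = 0.0061) and −1.06 (SE 0.30, adjusted p = 0.0016).

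*Faah*, which degrades anandamide, was highest in ependymal cells, the ciliated lining of the ventricle. The ependymal level was 67.3 ± 18.5 CPM (n = 9), from 42.8 through a median of 62.1 to 104 CPM, and the log2 difference was 2.56 (SE 0.21, edgeR adjusted p = 3.4e-18), 5.88-fold. Neurons had 48.4 ± 4.66 CPM (n = 10), from 42.2 through 49.5 to 56.3 CPM, with a log2 difference of 2.03 (SE 0.15, adjusted p = 2.0e-20). Oligodendrocytes had 28.4 ± 7.92 CPM (n = 10) and a log2 difference of 1.09 (SE 0.22, adjusted p = 1.2e-05). Ependymal cells were above neurons (exact sign-flip permutation test, adjusted p = 0.0277) and neurons above oligodendrocytes (exact test, adjusted p = 0.0143).

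OPCs held 17.8 ± 8.25 CPM of *Faah* (n = 9), microglia 10.9 ± 9.07 and astrocytes 4.70 ± 2.54 (each n = 10). Fibroblasts were at 0 in 6 of 8 libraries and endothelial cells in 6 of 7, with 2 UMIs in all endothelial sums, and *Faah* was called lower in endothelial cells (edgeR adjusted p = 0.0014). In astrocytes *Faah* was called lower (log2 difference −1.58, SE 0.33, adjusted p = 2.4e-05). That call was lost without male replicate 3 (−0.70, adjusted p = 0.99), and the sign turned (0.11, adjusted p = 0.85) when the 4440 of 10093 non-neuronal nuclei with a UMI of *Rbfox3* or *Syt1* were left out.

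The share of nuclei with a UMI was measured after thinning every nucleus to 2000 UMIs, which kept 10213 of 10410 neurons, 4308 of 5302 astrocytes and 563 of 993 microglia. In neurons it was 12.5 ± 2.92% for *Cnr1*, 11.0 ± 1.15% for *Dagla*, 12.9 ± 2.09% for *Mgll*, 7.45 ± 0.75% for *Faah*, 6.91 ± 0.78% for *Daglb* and 5.81 ± 1.32% for *Napepld* (SD, n = 10 libraries). Without thinning the shares were 39.3%, 39.3%, 39.9%, 30.7%, 29.1% and 24.2% in the same order, at a median of 11157 UMIs per neuron. In the 563 microglia kept, at a median of 3013 UMIs before thinning, the thinned share for *Cnr1* was 2.72 ± 2.47%. The thinned share was 40.1 ± 5.43% of astrocytes for *Mgll* and 37.5 ± 6.07% of microglia for *Daglb*, so each was found in a larger share of its leading glial type than of neurons. No neuron held more than 16 UMIs of any of the 6 genes, the maximum of *Mgll*.

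Neurons were then split by UMIs of 4 regional markers, *C1ql3* for the PVT, *Adarb2* for the mediodorsal thalamus, *Nwd2* for the habenula and *Gad2* for GABAergic neurons nearby. A nucleus joined a group when its marker had at least 2 UMIs and at least 2/3 of the UMIs of the 4, a split that uses none of the 6 genes. The *C1ql3* group held 4078 neurons (39.2%), the *Adarb2* group 2064 (19.8%), the *Nwd2* group 1040 (9.99%) and the *Gad2* group 118, and 3110 neurons (29.9%) were not assigned. The *Gad2* group reached 10 nuclei in male replicates 3 and 4 alone. Its mean level of *Slc17a6*, a vesicular glutamate transporter gene, was 241 CPM, against 230 CPM in the *Nwd2* group, so the GABAergic label was not clean. The *Nwd2* group held 909 CPM of the habenular gene *Tac2*. The *Adarb2* group held 22.8 CPM of *Cdh24*, a gene of the intermediodorsal thalamus, against 4.58 to 12.3 CPM in the other groups. Its mediodorsal label may thus take in intermediodorsal neurons.

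In *Adarb2* neurons the receptor gene and 4 of the enzyme genes differed from the other groups in opposite directions. *Cnr1* was high in *C1ql3* neurons and low in *Adarb2* neurons, and *Dagla*, *Mgll*, *Faah* and *Napepld* were highest in *Adarb2* neurons. *Daglb* stayed near the same level in all groups. Each group was compared with the mean of the other 3 by edgeR's quasi-likelihood test with the library as a block (13996 genes, 32 sums), and 10 of the 24 contrasts of the 6 genes were called.

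**Figure D3:**
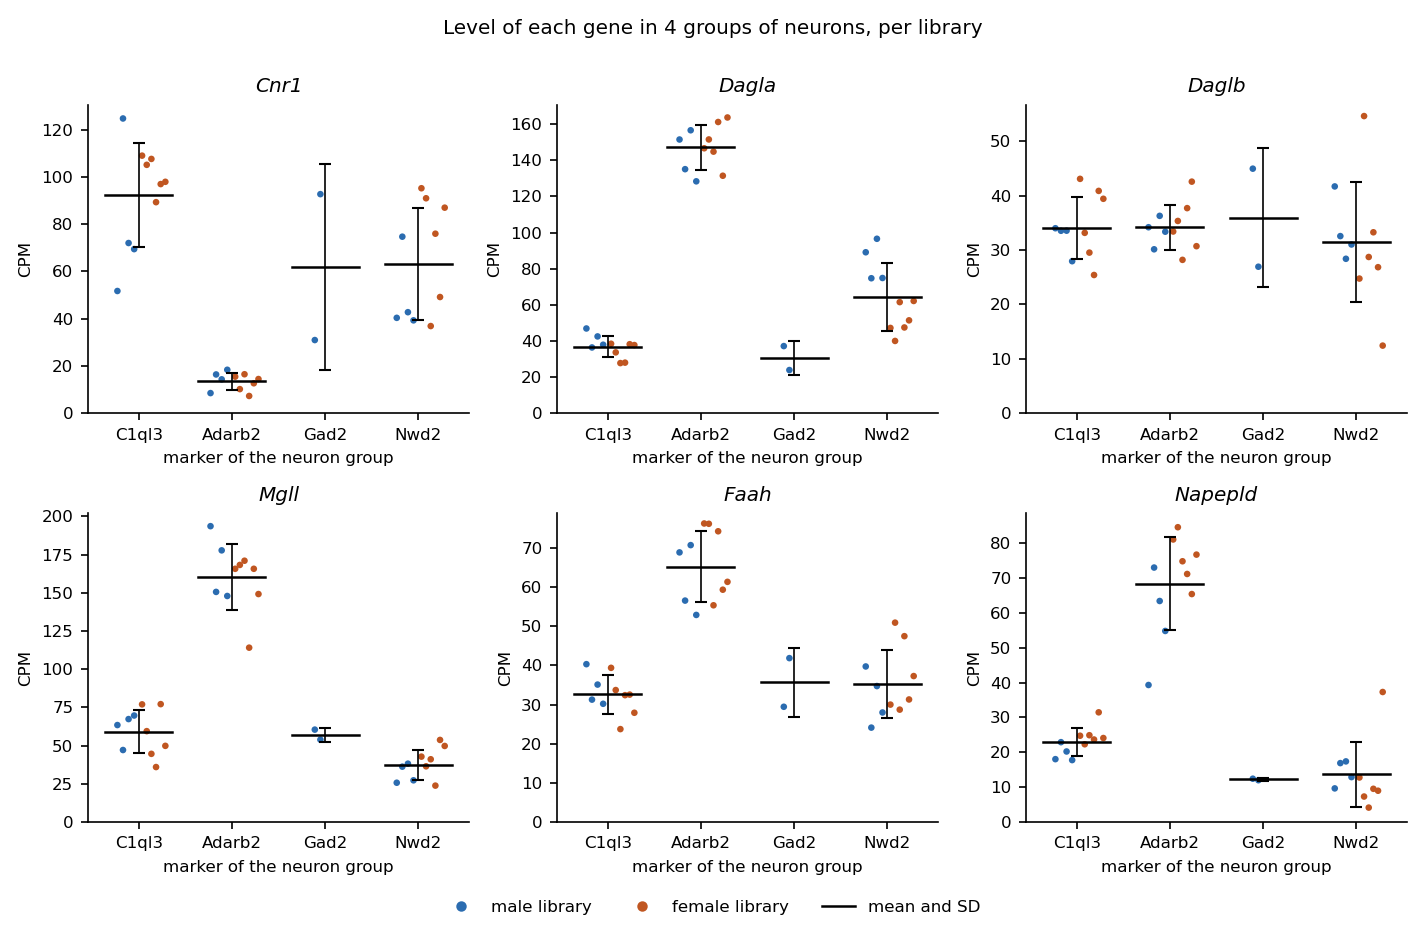
Level of each of the 6 genes (CPM, vertical axis) in the *C1ql3*, *Adarb2*, *Nwd2* and *Gad2* neuron groups (horizontal axis), with a point per library in blue for the male and orange for the female set, and the mean and SD in black. *Cnr1* ran from 92.4 CPM in *C1ql3* neurons to 13.5 CPM in *Adarb2* neurons, while *Dagla* ran from 36.8 to 147 CPM.

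*Cnr1* stood at 92.4 ± 22.0 CPM in *C1ql3* neurons (n = 10), from 51.7 through a median of 97.5 to 125 CPM. In *Adarb2* neurons it stood at 13.5 ± 3.68 CPM (n = 10), from 7.33 through 14.4 to 18.4 CPM. The ranges did not overlap, and the direct difference was 2.56 log2 units (SE 0.13, edgeR adjusted p = 9.1e-18), 5.91-fold, in 10 of 10 libraries. In *Nwd2* neurons the level was 63.3 ± 23.7 CPM (n = 10), from 36.9 to 95.2 CPM, and in the *Gad2* group it was 31.0 and 92.7 CPM in its 2 libraries. Against the mean of the other groups *Cnr1* was called higher in *C1ql3* neurons (1.22, SE 0.13, adjusted p = 2.7e-09) and lower in *Adarb2* neurons (−2.20, SE 0.18, adjusted p = 1.7e-12).

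*Dagla* showed the opposite order. It stood at 147 ± 12.2 CPM in *Adarb2* neurons (n = 10), from 128 through a median of 149 to 164 CPM, and at 36.8 ± 5.87 CPM in *C1ql3* neurons (n = 10), from 27.8 through 37.8 to 46.9 CPM. The direct difference, *C1ql3* minus *Adarb2*, was −1.97 (SE 0.09, edgeR adjusted p = 1.4e-19), 3.91-fold, and the ranges did not overlap. *Nwd2* neurons lay between these at 64.5 ± 18.9 CPM (n = 10), and the *Gad2* group had 37.2 and 23.9 CPM. *Dagla* was called higher in *Adarb2* neurons (1.79, SE 0.11, adjusted p = 4.3e-16) and lower in *C1ql3* neurons (−0.84, SE 0.13, adjusted p = 6.1e-06) and the *Gad2* group (−1.31, SE 0.27, adjusted p = 0.0013). The *Gad2* call was lost without male replicate 3 (adjusted p = 0.10), which leaves 1 library in that group.

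*Mgll* stood at 160 ± 21.5 CPM in *Adarb2* neurons (n = 10), from 114 through a median of 166 to 194 CPM, at 59.1 ± 14.2 in *C1ql3* neurons and at 37.4 ± 9.94 in *Nwd2* neurons (each n = 10). It was called higher in *Adarb2* neurons (1.75, SE 0.10, edgeR adjusted p = 8.8e-17) and lower in *Nwd2* neurons (−1.25, SE 0.13, adjusted p = 9.5e-10). The *Adarb2* libraries lay above all *C1ql3* and *Nwd2* libraries. Because *Mgll* was highest in astrocytes, astrocyte markers (*Agt*, *A2m*, *Aqp4* and *Slc1a2*) were summed in the same nuclei. They came to 303 to 458 CPM (median 395) in *Adarb2* neurons, 305 to 435 (median 375) in *C1ql3* neurons and 49.7 to 248 (median 130) in *Nwd2* neurons, against 4255 to 6555 CPM in astrocytes. The sums of *Adarb2* and *C1ql3* neurons overlapped, while those of *Nwd2* neurons were lower, as *Mgll* was. Their part in the *Mgll* differences was not tested.

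*Napepld* stood at 68.4 ± 13.4 CPM in *Adarb2* neurons (n = 10), from 39.3 through a median of 72.1 to 84.6 CPM, at 23.0 ± 3.95 in *C1ql3* neurons and at 13.7 ± 9.26 in *Nwd2* neurons (each n = 10). It was called higher in *Adarb2* neurons (2.03, SE 0.13, edgeR adjusted p = 4.0e-15) and lower in *Nwd2* neurons (−0.96, SE 0.22, adjusted p = 0.00047). *Faah* stood at 65.2 ± 9.08 CPM in *Adarb2* neurons, from 52.9 to 76.3 CPM, at 32.7 ± 4.96 in *C1ql3* neurons and at 35.2 ± 8.72 in *Nwd2* neurons (each n = 10). Its *Adarb2* excess was smaller than that of the other 3 genes, at 0.95 (SE 0.09, adjusted p = 1.7e-10). For both genes the lowest *Adarb2* library lay above the highest *C1ql3* and *Nwd2* libraries.

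*Daglb* held 34.0 ± 5.68 CPM in *C1ql3* neurons, 34.2 ± 4.13 in *Adarb2* neurons and 31.4 ± 11.0 in *Nwd2* neurons (each n = 10), and 44.9 and 26.9 CPM in the *Gad2* group. Its largest log2 difference from the mean of the other groups was 0.25 (SE 0.26, edgeR adjusted p = 0.73), in the *Gad2* group, and *C1ql3* minus *Adarb2* was −0.05 (SE 0.09, adjusted p = 0.72). The log2 ratio of *Dagla* to *Daglb* accordingly ran from 0.11 ± 0.23 in *C1ql3* neurons through 0.97 ± 0.61 in *Nwd2* neurons to 2.09 ± 0.21 in *Adarb2* neurons (each n = 10).

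*Adarb2* neurons were thus called higher for 4 of the 6 genes and lower for 1, where 13.0% and 12.4% of all genes were called. *C1ql3* neurons were called higher for 1 and lower for 1, against 10.5% and 6.94% of all genes. *Nwd2* neurons were called lower for 2, against 16.1%, and the *Gad2* group for 1, against 2.53%. The median log2 difference of the 6 genes in *Adarb2* neurons was 1.35, and that of all genes −0.03. In direct pairs, which were added after the data were seen, 14 of 18 differences were called.

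*C1ql3* minus *Adarb2* gave 1 gene higher and 4 lower, where 12.5% and 10.5% of all genes were called, and the ranges of all 5 did not overlap. *C1ql3* minus *Nwd2* gave 3 higher (*Cnr1* 0.61, *Mgll* 0.82 and *Napepld* 0.70 log2 units) and 1 lower (*Dagla* −0.90), against 19.2% and 20.2% of all genes, and the ranges overlapped for all of them. *Adarb2* minus *Nwd2* gave 4 higher (*Mgll* 2.25, *Napepld* 2.24, *Dagla* 1.07 and *Faah* 0.98) and 1 lower (*Cnr1* −1.96), against 18.9% and 23.1%. The SE of these differences was 0.10 to 0.17 log2 units. The ranges of the latter 5 genes did not overlap. How many of all genes have ranges without overlap was not counted for any pair, so non-overlap here has no share to be read against.

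The thinned shares showed the same directions as the levels. *Cnr1* was found in 16.7 ± 4.07% of *C1ql3* neurons and 2.62 ± 0.81% of *Adarb2* neurons, the latter near the 2.72% of microglia. *Dagla* was found in 6.96 ± 1.21% of *C1ql3* and 22.1 ± 1.51% of *Adarb2* neurons, and *Mgll* in 10.9 ± 2.53% and 23.7 ± 2.87% (SD, n = 10 libraries). The median depths of the groups were 12770 UMIs for *C1ql3* and 13100 for *Adarb2* neurons.

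The 8 neuron clusters the authors deposited show where in the *Adarb2* group the pattern lies. Their values are a description with no test, since clusters were formed on the expression of many genes. A cluster is said to be led by the marker whose level was highest relative to that marker's mean over the 8 clusters. Clusters 1, 2 and 4 were led by *C1ql3*, clusters 3, 7 and 8 by *Adarb2* and cluster 6 by *Nwd2*. Cluster 5 was led by *Gad2* (85.7 CPM) on this relative scale, but it also held *Adarb2* (313 CPM) and *Nwd2* (150 CPM) and is called by its number. Cluster 3 (1106 nuclei) held 52.3% of the *Adarb2* group, cluster 7 held 19.7% and cluster 8 held 17.7%. Cluster 7 had the highest *Cdh24* of the 8 clusters, at 39.25 CPM, against 16.16 CPM in cluster 3. The marker levels of this paragraph are scaled to all UMIs of a cluster, pooled over libraries.

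Cluster 3 was the extreme of 5 of the 6 genes. Its *Cnr1* level was 5.38 ± 3.26 CPM, against 27.2 ± 6.89 in cluster 7, 32.4 ± 12.9 in cluster 8 and 68.1 to 103 CPM in the other clusters (SD, n = 10 libraries). After thinning, 0.91% of its nuclei held a *Cnr1* UMI, against 2.72% of microglia. Its *Dagla* level was 186 ± 15.2 CPM, against 94.8 ± 21.5 in cluster 8, 84.7 ± 14.8 in cluster 7 and 17.5 ± 7.27 in cluster 4, the lowest.

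*Mgll* stood at 179 ± 25.5 CPM in cluster 3, 152 ± 41.1 in cluster 8 and 107 ± 27.1 in cluster 7, and at 26.7 to 77.9 CPM in the others. *Napepld* stood at 82.4 ± 17.2 CPM in cluster 3, 49.2 ± 16.4 in cluster 7 and 45.4 ± 19.6 in cluster 8, against 13.6 to 27.8 CPM elsewhere. *Faah* set cluster 3 apart from all the others, at 80.5 ± 14.4 CPM against 27.0 to 45.2 CPM. The 3 *Adarb2*-led clusters therefore shared high *Dagla*, *Mgll* and *Napepld* and low *Cnr1*, while high *Faah* belonged to cluster 3. *Daglb* ran from 29.0 to 40.1 CPM over the 8 clusters.

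**Figure D4:**
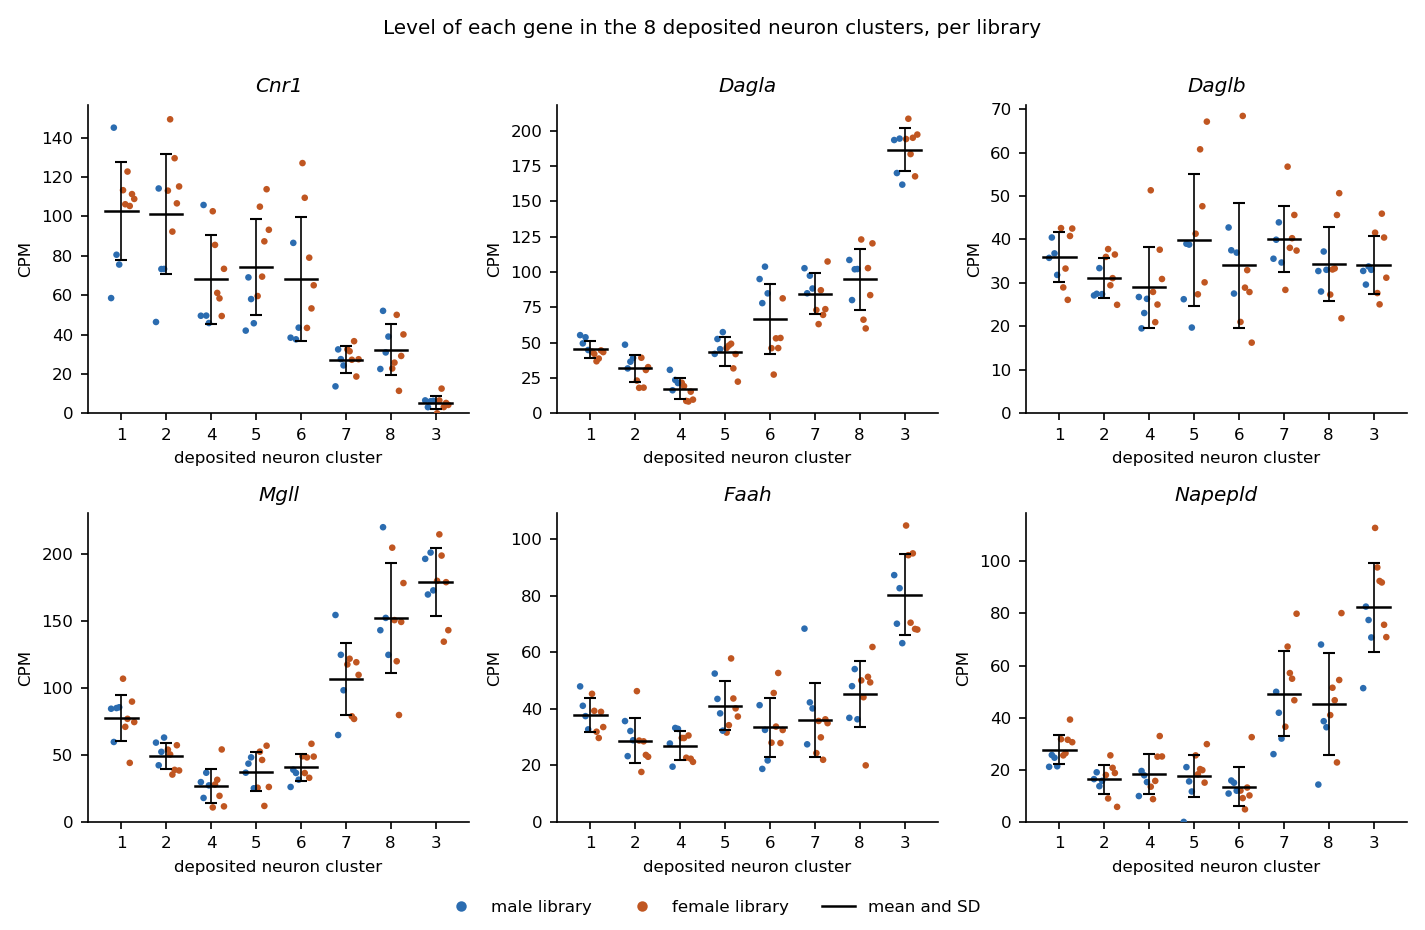
Level of each of the 6 genes (CPM, vertical axis) in the 8 deposited neuron clusters (horizontal axis, *C1ql3*-led clusters 1, 2 and 4 at the left and the *Adarb2*-led clusters 7, 8 and 3 at the right), with a point per library in blue for the male and orange for the female set, and the mean and SD in black. Cluster 3 has the lowest *Cnr1* (5.38 CPM) and the highest *Dagla* (186 CPM), *Mgll* (179 CPM), *Faah* (80.5 CPM) and *Napepld* (82.4 CPM).

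Over the 8 cluster means, Pearson's r of *Cnr1* was −0.83 with *Dagla*, −0.73 with *Mgll*, −0.85 with *Faah* and −0.85 with *Napepld*, and −0.23 with *Daglb*. Among the enzymes it was 0.92 for *Mgll* with *Napepld*, 0.88 for *Dagla* with *Mgll* and 0.84 for *Dagla* with *Faah*. These coefficients describe 8 points that come from the same 10 libraries, and cluster 3 lies at an end of most of them. Over all 16 deposited clusters, glia included, *Cnr1* with *Dagla* had an r of 0.17.

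Within the PVT, *C1ql3* neurons were split into a posterior type, by UMIs of *Drd2*, *Esr1*, *Col12a1* and *Pde3a*, and an anterior type, by UMIs of *Insrr*, *Npffr1*, *Npsr1* and *Hcrtr1*. The split left 1333 posterior-type and 526 anterior-type nuclei, and 9 libraries had both. Posterior minus anterior, 3 of the 6 genes were called higher and none lower (edgeR, library as a block, 7226 genes tested), where 6.79% of all genes were called higher. These were *Mgll*, *Napepld* and *Dagla*. The median log2 difference of the 6 genes was 0.57, against −0.04 for all genes.

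*Mgll* rose from 34.5 ± 16.0 CPM in the anterior type (n = 9), from 10.7 through a median of 30.8 to 67.5 CPM, to 82.9 ± 18.0 CPM in the posterior type (n = 10), from 56.0 through 82.7 to 108 CPM. The difference was 1.27 log2 units (SE 0.11, edgeR adjusted p = 1.5e-14), 2.42-fold, in 9 of 9 libraries. *Napepld* was at 17.5 ± 7.23 CPM in the anterior and 33.9 ± 10.0 CPM in the posterior type, a difference of 0.80 (SE 0.15, adjusted p = 2.9e-05) in 9 of 9 libraries. *Dagla* was at 28.8 ± 11.4 and 52.4 ± 13.6 CPM, a difference of 0.75 (SE 0.13, adjusted p = 2.1e-06) in 9 of 9 libraries. The ranges of the types overlapped for every gene, while within libraries the direction of these 3 was the same throughout. The smallest anterior-type sums held 1 UMI each, *Mgll* and *Dagla* in female replicate 1 and *Napepld* in female replicate 6.

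*Cnr1* was at 94.5 ± 30.5 CPM in the anterior and 98.4 ± 30.2 CPM in the posterior type, a difference of 0.15 (SE 0.08, edgeR adjusted p = 0.18). *Faah* differed by 0.15 (SE 0.12, adjusted p = 0.40). *Daglb* differed by 0.38 (SE 0.13, adjusted p = 0.018), under the size needed for a call. The summed astrocyte markers moved with this comparison, at 196 to 459 CPM (median 271) in the anterior type and 402 to 606 CPM (median 480) in the posterior type, and their part in the *Mgll* difference was not tested. With the 6 female libraries alone, 1 of the 5 genes that could be tested was called and *Dagla* was not (0.74, adjusted p = 0.097).

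**Figure D5:**
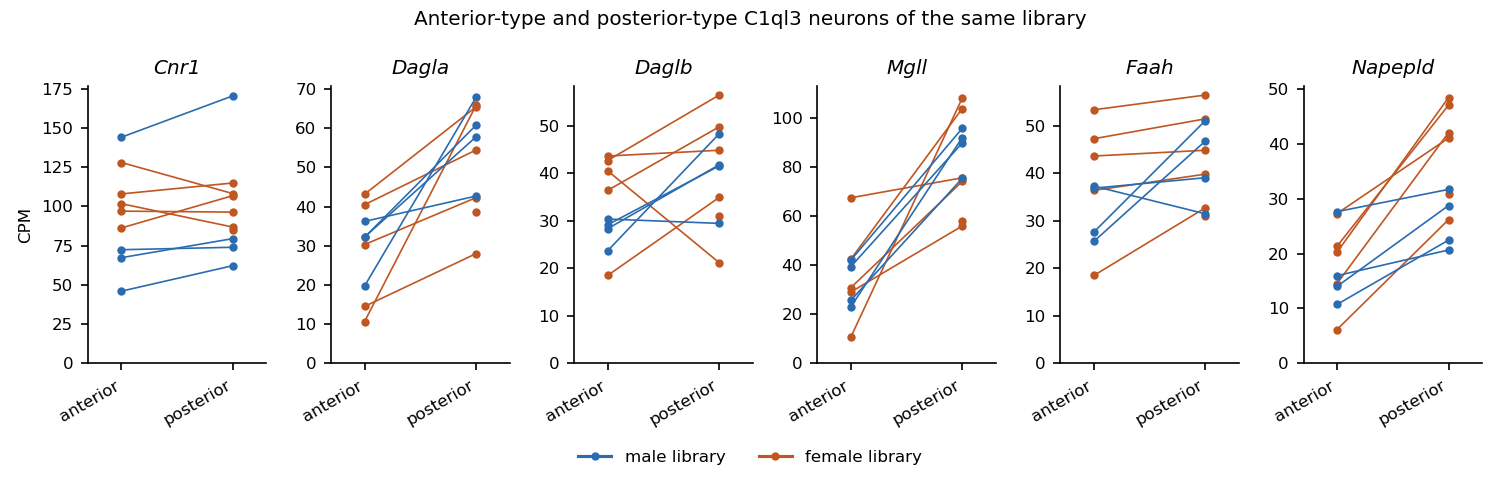
Level of each of the 6 genes (CPM, vertical axis) in anterior-type and posterior-type *C1ql3* neurons (horizontal axis), with a line joining the values of each library, blue for the male and orange for the female set. The *Mgll*, *Napepld* and *Dagla* lines rise in 9 of 9 libraries, and the *Cnr1* lines rise in 6 of 9.

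The female libraries were compared with the 4 male libraries within each cell type (edgeR, no block). Sex cannot be told apart from the other ways in which the sets differ, depth and the mitochondrial counts among them. Of the 22 contrasts with enough counts, 3 were called. *Napepld* was higher in neurons of the female set, where 6.05% of all genes were called higher. *Dagla* was lower in astrocytes and in microglia of the female set, where 5.86% and 2.90% of all genes were called lower.

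*Napepld* in neurons stood at 23.7, 37.5, 33.4 and 33.0 CPM in male replicates 1 to 4 and at 37.7, 41.6, 43.5, 46.8, 50.9 and 49.9 CPM in female replicates 1 to 6. The sets did not overlap, and the difference was 0.50 (SE 0.14, edgeR adjusted p = 0.026). The call was lost without female replicate 4, 5 or 6 or male replicate 1 or 4 (adjusted p 0.052 to 0.059), so it sat at the edge of the threshold.

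*Dagla* in astrocytes stood at 51.9, 41.7, 49.5 and 43.7 CPM in the male replicates and at 20.8 to 35.6 CPM (median 25.8) in the female ones, without overlap, a log2 difference of −0.73 (SE 0.19, edgeR adjusted p = 0.022). In microglia it stood at 182, 100.4, 113 and 70.5 CPM in the male replicates and at 16.6, 52.2, 68.2, 50.9, 39.1 and 39.6 CPM in the female ones, a log2 difference of −1.24 (SE 0.33, adjusted p = 0.042). In both cell types every male library lay above every female one. The summed neuron markers ran from 328 to 1903 CPM (median 1160) in male microglia and from 416 to 809 (median 652) in female microglia, and from 327 to 1157 (median 690) in male and 336 to 840 (median 512) in female astrocytes. Their part in these differences was not tested. The microglial ratio of *Dagla* to *Daglb* ran from −1.08 to −0.75 in the male set and from −3.37 to −1.69 in the female set, while *Daglb* itself differed by 0.15 (SE 0.20, adjusted p = 0.73).

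The astrocyte call was lost without female replicate 1, 3 or 6 or male replicate 3 (edgeR adjusted p 0.051 to 0.059), and the microglial call without any of 7 libraries (female replicates 1, 2, 4, 5 and 6, male replicates 1 and 3; adjusted p 0.066 to 0.13). For the cell type differences themselves, 0 of 48 contrasts differed between the sets at an adjusted p under 0.05 in edgeR's interaction test, 7 did so at an unadjusted p under 0.05, and the smallest adjusted p was 0.0802.

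Of 25 further genes of the pathway, 15 passed the filter across the 8 cell types, and 38 of their 120 contrasts were called higher and 37 lower. *Cnr2*, the gene of the second cannabinoid receptor, was among the 10 that did not, with *Gpr55*, *Gpr18*, *Gpr119*, *Trpv1*, *Ptgs2*, *Gdpd3*, *Pla2g4e*, *Fabp3* and *Plcb2*. The tested genes were called higher and lower 6 and 5 times in neurons (29.7% and 27.5% of all genes), 8 and 3 in astrocytes (21.4% and 19.8%), 7 and 2 in OPCs (19.2% and 14.7%) and 4 and 6 in oligodendrocytes (20.8% and 26.0%). They were called higher and lower 4 and 7 times in microglia (22.8% and 27.4% of all genes), 5 and 3 in ependymal cells (26.7% and 19.2%), 3 and 6 in endothelial cells (18.4% and 20%) and 1 and 5 in fibroblasts (11.2% and 9.12%).

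*Grm5*, a metabotropic glutamate receptor whose activation can drive 2-AG release, was higher in neurons, at 1070 ± 137 CPM (log2 difference 2.80, SE 0.19, edgeR adjusted p = 6.4e-22). It was also higher in OPCs, with 1052 ± 137 CPM and a log2 difference of 2.82 (SE 0.21, adjusted p = 2.9e-19). In neurons the lipid carrier gene *Fabp7* (−2.37, SE 0.22, adjusted p = 1.9e-15) and the phospholipase C gene *Plcb3* (−2.66, SE 0.26, adjusted p = 1.5e-14) were lower.

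In glia, *Abhd12*, a hydrolase that takes 2-AG and lysophosphatidylserine, was higher in microglia (2.57, SE 0.10, edgeR adjusted p = 3.7e-35), as *Daglb* was. *Ppara*, the nuclear receptor of fatty acids and N-acylethanolamines, was higher in astrocytes (3.06, SE 0.18, adjusted p = 1.0e-24). In microglia *Ppara* was lower (−2.90, SE 0.58, adjusted p = 1.4e-05), at a level of only 0.87 ± 2.03 CPM (SD, n = 10). *Naaa*, the acid amidase for N-acylethanolamines, was higher in ependymal cells (4.07, SE 0.21, adjusted p = 4.2e-28), the type with the highest *Faah*. In endothelial cells *Naaa* was lower (−3.66, SE 1.08, adjusted p = 0.0044), at a level of only 1.97 ± 5.21 CPM (SD, n = 7). *Plcb1* was higher in astrocytes (2.50) and endothelial cells (2.33) and lower in fibroblasts (−1.65), *Fabp7* was higher in OPCs (2.20) and *Fabp5* in oligodendrocytes (1.92), all past the threshold. *Plcb3* was higher in ependymal cells (2.20) and lower in oligodendrocytes (−2.19), and *Ppara* was higher in fibroblasts (1.89).

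The genes whose mean log2 level over the 16 deposited clusters was most like each of the 6 were found among 12922 genes. For *Cnr1* they were *Cpa6* (Pearson's r 0.91), *Baiap3* (0.91) and *Gm27016* (0.90), and for *Dagla* they were *Slc29a1* (0.92), *Camk2d* (0.89) and *Helz* (0.88). For *Daglb* they were *Arl4c* (0.97), *Ccdc93* (0.96) and *Fam91a1* (0.94), and for *Mgll* they were *Zkscan3* (0.84), *Senp1* (0.80) and *Bach2* (0.80). *Faah* was most like *Cnksr2* (0.95), *Ccsap* (0.95) and *Csgalnact2* (0.94), and *Napepld* like *Acyp2* (0.91), *Inpp5j* (0.88) and *Cdc42bpa* (0.86). The clusters share libraries and differ in depth, so these coefficients are descriptions of 16 points.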

How the data were processed

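Nuclei of PVT tissue punches were profiled with 10x Genomics 3′ chemistry. The authors removed low-quality nuclei and doublets and named clusters before deposit, and no doublet caller was run here. The submitters' processing notes name Cell Ranger 6.1.1 and mm10. The deposited matrix holds UMI counts per gene and nucleus, not normalized, and the deposited metadata give each nucleus its library, its cluster and a mitochondrial percent, which served 1 alternative. The clusters were formed on many genes, the 6 possibly among them, so p-values between cell types describe the spread over libraries. The 22 other metadata columns were not used.

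UMIs were summed per library and group with at least 10 nuclei, without mitochondrial genes, and tested with edgeR 4.0.16 (R 4.3.3, TMM scaling, filterByExpr, quasi-likelihood test). DESeq2 1.42.0 and the other alternatives are given in the closing section. Scripts were tested on simulated data. CPM differences between cell types were tested on log2(CPM + 1) and ratios on UMIs + 1, by exact sign-flip permutation tests in Python 3.11.15 with scipy 1.17.1, adjusted over 168 pairs and 7 pairs. Nothing says that libraries with the same number share animals, and p-values measure the spread between libraries. No interval is given for counting error.

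The 6 genes and all lists were chosen with earlier results of these data known. Named were the 6 genes in every comparison, of the 25 further genes the 4 called ones with the largest difference in neurons and at most 2 in each other type, and for each of the 6 the 3 genes most like it. Results of some of the genes this rule names are not reported here. For the latter a mean of at least 5 CPM over the clusters was required, with at least 20 UMIs in each set and a log2 ratio between the sets under 3.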

Additional observations from a re-analysis of the deposited data

Results flagged for a closer look

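Of 138 groups of 4 to 6 libraries, each within the male or the female set, 7 (5.07%) held a library far from the rest by Dixon's test, and chance gives about 1 in 20. Of these, 3 rest on 3 UMIs each. *Daglb* in oligodendrocytes was at 15.7 CPM in male replicate 1, against 27.3 to 28.9 CPM in the other male libraries. *Daglb* in anterior-type neurons was at 18.5 CPM in female replicate 6, against 36.4 to 43.6 CPM. *Napepld* in *Nwd2* neurons was at 37.3 CPM in female replicate 6, against 4.10 to 12.7 CPM.

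The other 4 have more UMIs behind them. *Cnr1* stood out in male replicate 2 in both of its groups flagged, at 170 CPM in posterior-type neurons (113 UMIs), against 62.3 to 79.5 CPM, and at 74.7 CPM in *Nwd2* neurons (62 UMIs), against 39.3 to 42.8 CPM. *Daglb* in *C1ql3* neurons was at 27.9 CPM in male replicate 4 (444 UMIs), against 33.5 to 34.0 CPM. *Napepld* in *C1ql3* neurons was at 31.5 CPM in female replicate 5 (144 UMIs), against 22.3 to 24.9 CPM in the other female libraries.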

How the results depend on the processing

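Of 2256 values of single genes under an alternative, 2120 kept their call and its direction or stayed uncalled, 103 lost a call, 32 gained 1 and 1 turned. A value that was uncalled in both settings counts as kept even where its sign changed. That 1 was *Faah* in astrocytes, at 0.11 without the non-neuronal nuclei that held *Rbfox3* or *Syt1*. The 27 cell type calls became 10 of 32 testable with nuclei of at most 1% mitochondrial UMIs and 17 with the 4 male libraries alone. Without the non-neuronal nuclei that held *Rbfox3* or *Syt1*, 20 of 40 testable contrasts were called, and 17 of these calls were among the 27. The other alternatives made 22 to 27 calls, not all of them among the 27. The 10 regional calls became 10 to 14 under every alternative, and all 10 were among the calls made with the deposited clusters in place of the marker split. The 14 calls in direct pairs, added after the data were seen, became 13 or 14. The 3 anterior and posterior calls became 1 of 5 testable with the 6 female libraries alone. The 6 calls on the *Dagla* to *Daglb* ratio became 3 of 6 testable at 1% mitochondrial UMIs, 0 with the 4 male libraries alone and 0 with the 6 female libraries alone. With 4 libraries the exact test cannot make a call. By the deposited mitochondrial percent, the limit of 1% kept 4489 of 6526 non-neuronal nuclei of the male and 490 of 3567 of the female set. These alternatives leave fewer nuclei or libraries, and the cause of the changes was not tested.

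Leaving out 1 library at a time gave 24 to 27 calls across cell types, 71 to 81 for the wider list (75 with all libraries), 10 to 11 for the regional groups, 14 for the direct pairs, 2 to 3 for the anterior and posterior types, 5 to 6 for the ratio and 0 to 4 for the female set.

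The 3 calls of the female against the male set became 1 of 9 testable at 1% mitochondrial UMIs. With the replicate number as a block, on the 4 numbers both sets carry, 0 of 20 contrasts were called in edgeR, at log2 differences of −0.79 for *Dagla* in astrocytes, −1.16 for *Dagla* in microglia and 0.44 for *Napepld* in neurons (adjusted p 0.11, 0.40 and 0.14). Same-numbered libraries were not paired in the data: their deviations from the set means correlated at −0.13, −0.13, −0.15 and 0.15, and 0 of 4 male libraries correlated best with their own number. The fits across cell types, regions and anterior and posterior types had the library as a block, and without that block they made 26, 11 and 3 calls.

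The share of neurons with a UMI depends on the depth it is thinned to. At 1000 UMIs it was 6.70% for *Cnr1*, 5.76% for *Dagla*, 3.48% for *Daglb*, 6.98% for *Mgll*, 3.84% for *Faah* and 2.98% for *Napepld*. With no thinning it was 39.3%, 39.3%, 29.1%, 39.9%, 30.7% and 24.2% in that order. Depth limits the levels in endothelial cells and fibroblasts most, where *Faah* had 2 and 3 UMIs and *Cnr1* 18 and 8.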
